A study of Dorcoceras hygrometricum with 9 samples.

Results

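The enzymes of phenylpropanoid and flavonoid synthesis were followed in leaves of the resurrection plant Boea hygrometrica (Dorcoceras hygrometricum in the labels) as the leaves dried. The members are the 69 genes with at least 60 reads in total whose best protein match names phenylalanine ammonia-lyase, a cinnamate, coumarate or caffeate enzyme, chalcone synthase or isomerase, or a flavone, flavonol, isoflavone, dihydroflavonol or anthocyanidin enzyme. Matches that name a glycosyltransferase, a glucosyltransferase or a cytochrome P450 were left out by that rule, which took 12 further genes with at least 60 reads. The rule works on these words alone, so P450 enzymes and sugar transferases whose match is worded otherwise remain among the members. A further 18 genes with the search words had between 1 and 31 reads, and the member with the fewest had 60. The 69 members stand among 24182 genes with a read, of which 14579 had at least 60 reads. Leaf RNA of potted plants was sequenced in 3 states, hydrated, dried to 70% relative water content (RWC, the water held as a share of that held at full turgor) and dried to 10% RWC, with 3 libraries each. Genotype, plant age and the number of plants behind a library are not given in the sources used here, and all 9 libraries share the tissue and the extraction with Trizol.

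Phenylpropanoid synthesis starts from the amino acid phenylalanine. Phenylalanine ammonia-lyase (PAL) removes its amino group to give cinnamate, cinnamate 4-hydroxylase makes coumarate, and 4-coumarate:CoA ligase (4CL) activates it as a CoA ester. Coumaroyl-CoA is then shared between branches: hydroxycinnamoyltransferases, hydroxylases, methyltransferases and reductases lead to soluble hydroxycinnamate esters and to the alcohols that form lignin, while chalcone synthase (CHS) opens the route to flavonols, anthocyanins and other flavonoids. In leaves the products are known as ultraviolet screens, pigments, antioxidants and wall polymers.

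The level of a gene is given as CPM, the standard scaling of its unique reads to the size of the library, here after TMM adjustment, as mean ± SD over the 3 libraries of a state. Libraries held between 6654601 and 7423965 unique reads in the genes tested. Replicate 1 of each state stood somewhat apart from replicates 2 and 3: over genes the chi-square per gene was 4.59 to 8.28 for pairs with replicate 1 and 1.26 to 1.37 for replicates 2 against 3. A p-value here therefore measures the spread between libraries, part of which may be technical. Among the members, replicate 1 lay below the mean of replicates 2 and 3 in all 3 states for 20 genes and above it in all 3 for 9. The same count over all genes was not made. With 0.5 CPM added, the log2 ratio of replicate 1 to that mean had a median over the 3 states of at most 0.76 in size for any member. Single states could differ by more, as the 10% RWC libraries of Bhs119_078V1.1 below show. With replicates 2 and 3 alone, 60 members were called at 70% RWC and 67 at 10% RWC against hydrated leaves, beside 60 and 65 with all libraries. Since replicates 2 and 3 differed by little more than counting error, they were also summed as 1 sample per state, which gave 58 and 64 calls.

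Leaf identity was plain in the hydrated libraries, where 19 mesophyll marker genes (Rubisco small subunit and activase, photosystem I and chlorophyll-binding proteins) summed to between 67240 and 88560 CPM. Their sum was 7747 to 9935 CPM at 70% RWC and 2630 to 3135 CPM at 10% RWC, with 15 of 19 lower and 4, the early light-induced proteins, higher at both states against hydrated. The 3 guard cell markers matched (none matched KAT1) summed to 37.0, 15.1 and 7.63 CPM, with 3 of 3 lower, and the 17 epidermis and cuticle markers to 803.8, 134.1 and 97.9 CPM, with 8 of 11 tested lower and 1 higher in each drier state. The 11 xylem and secondary wall markers summed to 215.6, 522.6 and 1415 CPM with 3 of 9 tested higher and 5 lower at 70% RWC and 4 higher and 5 lower at 10% RWC, a sum carried by a laccase that the list of lignin polymer enzymes below also holds, and 4 phloem markers summed to 69.2, 1413 and 1770 CPM with 3 of 3 tested higher in both drier states, carried by a sucrose transporter. Both root markers were near 0, at 0.291 CPM in hydrated leaves and 0 at 10% RWC. In bulk leaf RNA, fewer cells of a type and less RNA per cell cannot be told apart, and the part of cell type markers in the member results was not tested.

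Most members fell as the leaves dried. In all 3 comparisons a member is called at an adjusted p under 0.05 (edgeR quasi-likelihood test, Benjamini-Hochberg over all 14585 genes tested, all 69 members among them). At 70% RWC, 40 members were lower than in hydrated leaves, 20 were higher and 9 were not called, where 70.5% of all genes were called, 35.9% lower and 34.6% higher. At 10% RWC, 47 members were lower, 18 higher and 4 not called, against 83.9% of all genes called, 41.5% lower and 42.4% higher. From 70% to 10% RWC, 40 members fell, 20 rose and 9 were not called, against 76.8% of all genes called, 39.6% lower and 37.1% higher. The median log2 difference of the members was -0.91, -1.85 and -1.25 in these comparisons, where that of all genes was -0.01, 0.01 and -0.05. The comparisons share libraries, so their counts are not independent of each other.

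With a floor of 2-fold, 33 members fell and 14 rose at 70% RWC against hydrated, where 20.5% and 15.1% of all genes did. At 10% RWC, 41 fell and 11 rose by at least 2-fold, where 29.7% and 25.9% of all genes did. From 70% to 10% RWC, 36 fell and 10 rose by at least 2-fold, where 25.0% and 18.6% of all genes did.

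All 3 hydrated libraries lay above the other 6 for 38 members, 55.1% of them, where 28.7% of all genes tested had that pattern. The 70% libraries were the highest for 12 members (17.4%, against 16.0% of all genes) and the 10% libraries for another 12 (17.4%, against 30.9% of all genes), and 7 members had no state clear of the others. The lowest libraries were those at 10% RWC for 32 members (46.4%, against 29.6% of all genes), the hydrated ones for 12 (17.4%, against 25.4%) and those at 70% RWC for 11 (15.9%, against 11.3%).

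**Figure D1:**
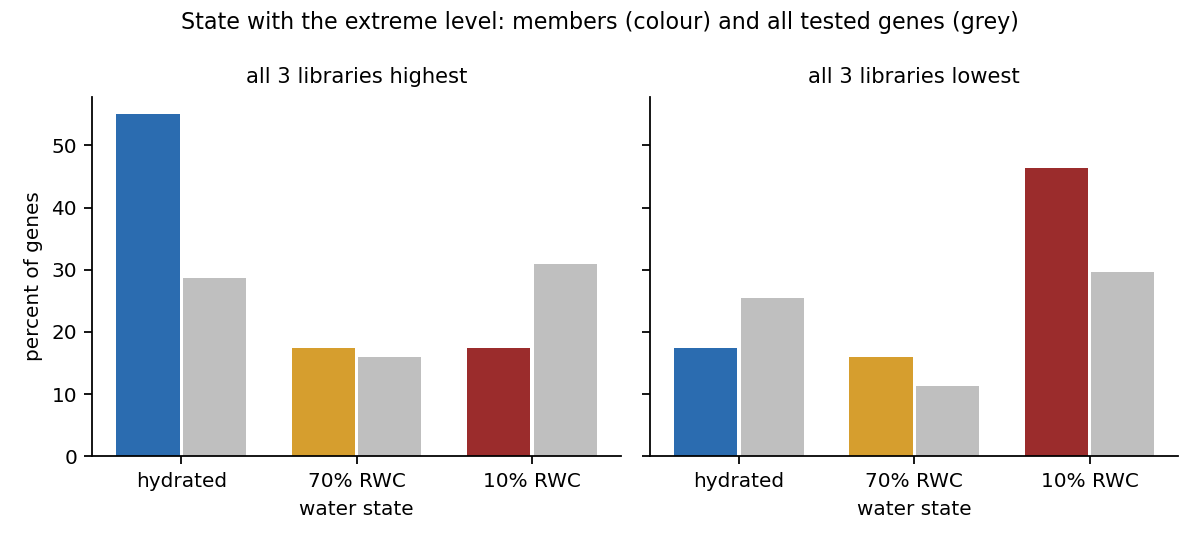
Percent of genes (y axis) for which all 3 libraries of a water state (x axis) lay above, left, or below, right, all other 6 libraries, for the 69 members in colour and all 14585 tested genes in grey. Hydrated leaves were the highest state for 55.1% of members and 28.7% of all genes, and leaves at 10% RWC the lowest for 46.4% of members and 29.6% of all genes.

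The entry to the pathway fell at each step of drying. PAL Bhs160_034V1.1 (scaffold 160, 209873 to 213045, plus strand) stood at 852.2, 940.9 and 889.0 CPM in hydrated leaves, at 132.8, 151.6 and 152.9 CPM at 70% RWC and at 8.92, 5.33 and 8.51 CPM at 10% RWC. The 3 states did not overlap. The log2 difference was -2.62 (SE 0.09) at 70% RWC and -6.87 (SE 0.12, edgeR adjusted p = 1.69e-17) at 10% RWC, both against hydrated. The other PAL genes were lower in both drier states too: Bhs672_035V1.1 went from 67.7 ± 9.41 CPM to 8.75 ± 0.394 and 1.54 ± 0.190 CPM, and Bhs6205_001V1.1 from 14.5 ± 1.42 to 2.93 ± 0.131 and 0.225 ± 0.151 CPM. Reads covered 53.5% of the gene model of Bhs672_035V1.1 and 77.6% of that of Bhs6205_001V1.1 in their best library. Summed over the 3 genes, PAL stood at 976.2 ± 51.0, 157.5 ± 11.5 and 9.35 ± 2.10 CPM.

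Cinnamate 4-hydroxylase, the enzyme after PAL, is outside the member rule because it is annotated as a cinnamate monooxygenase P450, and was looked up after the member values were seen. Its gene Bhs717_006V1.1 stood at 292.2 ± 6.40, 95.5 ± 3.63 and 21.7 ± 2.44 CPM, lower in both drier states with log2 differences of -1.61 and -3.75.

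Of the 6 genes named 4CL, 5 fell at 70% RWC and 6 at 10% RWC against hydrated, beside 35.9% and 41.5% of all genes. Their median log2 difference was -1.87 and -4.21. The most abundant, Bhs713_009V1.1 (scaffold 713, 298637 to 302154, minus strand), stood at 122.6, 144.8 and 139.6 CPM in hydrated leaves, at 27.4, 28.1 and 30.9 CPM at 70% RWC and at 34.6, 48.8 and 49.98 CPM at 10% RWC. It was lowest at 70% RWC and rose from there to 10% RWC by 0.63 on the log2 scale (SE 0.13, edgeR adjusted p = 0.000377). The 4CL gene Bhs547_030V1.1 went from 55.6 ± 9.11 to 12.7 ± 0.557 CPM and was left with 1 read in each library at 10% RWC, a read ratio to hydrated of 0.00247 (exact 95% interval 0.000508 to 0.00723, counting error only). The 4CL gene Bhs1755_023V1.1 went from 54.4 ± 3.70 to 9.43 ± 0.902 CPM and then to 2 reads in all at 10% RWC, a read ratio of 0.00167 (interval 0.000202 to 0.00605). In contrast, Bhs32_080V1.1 was 37.5 ± 6.99 CPM in hydrated leaves and 29.7 ± 5.45 CPM at 70% RWC, groups that overlapped, before it fell to 2.83 ± 0.958 CPM at 10% RWC. Its 70% difference of -0.33 on the log2 scale missed the threshold (edgeR adjusted p = 0.0805), and the values over 17 other settings ran from 0.000881 to 0.303, with 0.00129 under the replicate block. The last 2 genes named 4CL, Bhs734_010V1.1 and Bhs7_017V1.1, have another acyl-CoA ligase, an OPC-8:0 CoA ligase of jasmonate synthesis, as their KEGG match. The former fell from 40.7 ± 1.89 to 13.2 ± 2.36 and 1.54 ± 0.171 CPM, and the latter was lower in both drier states at 24.7 ± 3.67, 14.0 ± 1.94 and 17.6 ± 2.23 CPM.

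**Figure D2:**
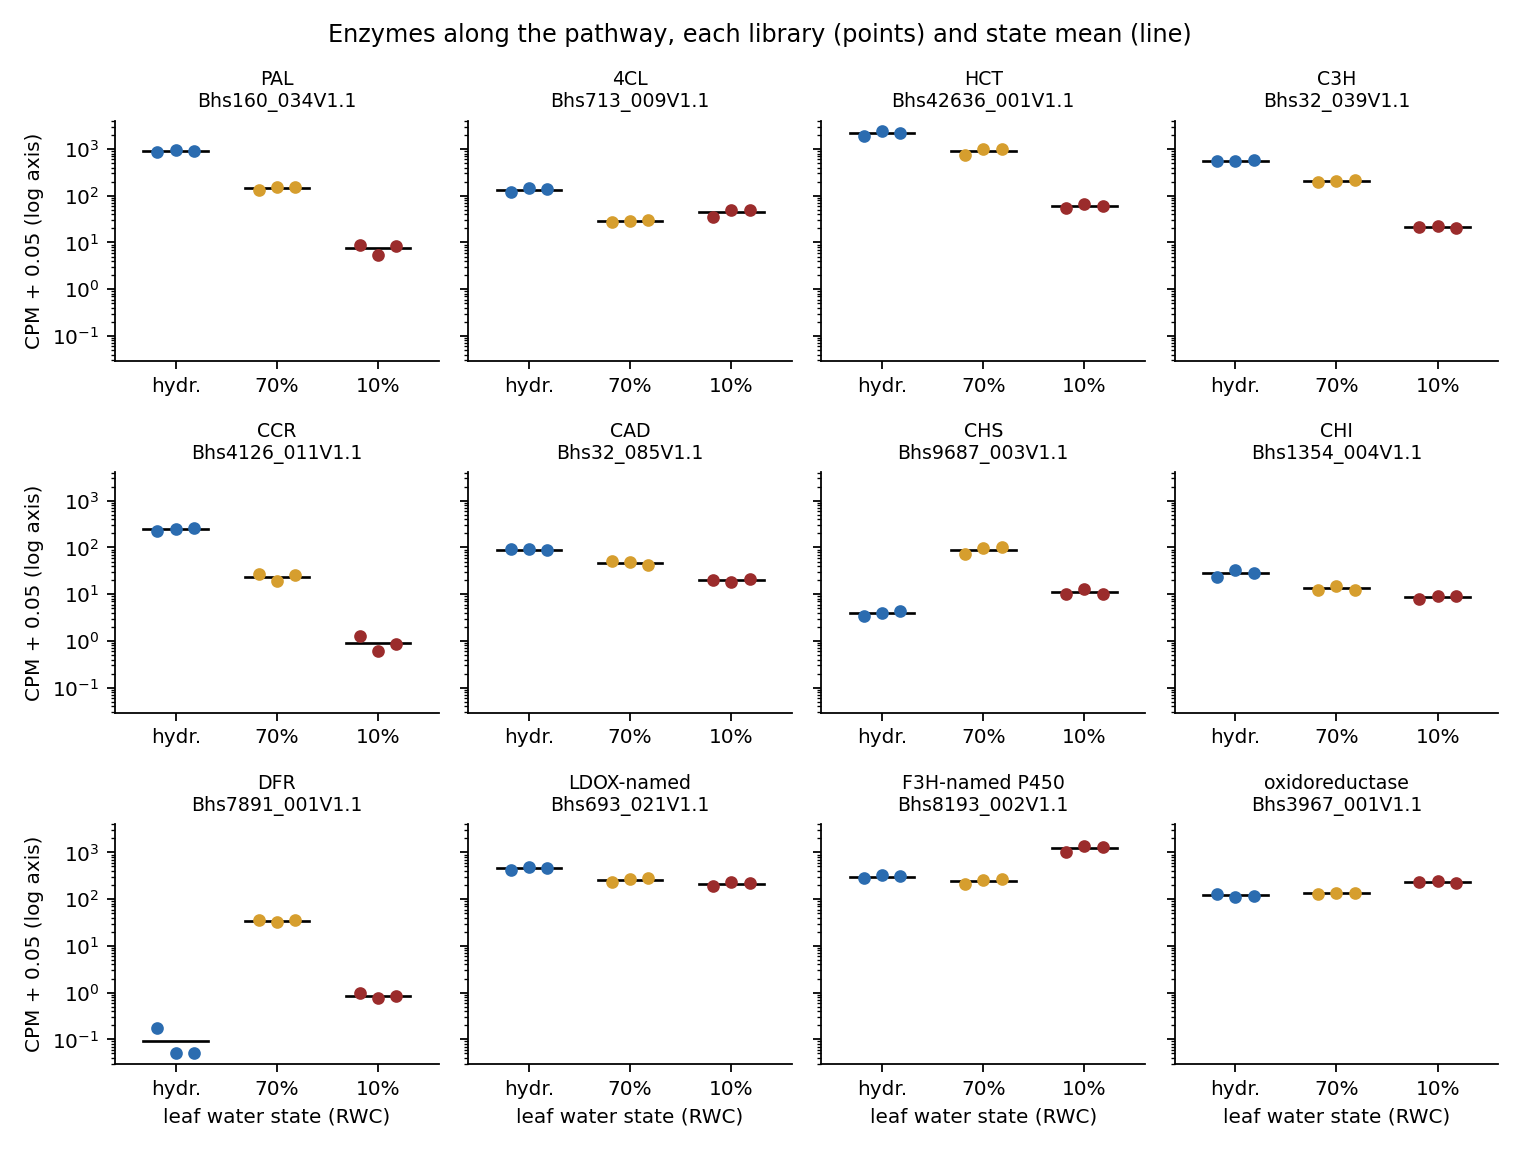
CPM plus 0.05 on a log axis (y) for 12 members in hydrated leaves, at 70% RWC and at 10% RWC (x), with a point per library and a line at the state mean. The PAL, HCT, C3H and CCR genes shown step down at each state, and the CHS and DFR genes shown peak at 70% RWC at 89.5 and 34.7 CPM. The flavonoid 3-hydroxylase-named P450 is highest at 10% RWC at 1229 CPM. Other members named HCT, CCR or DFR have other profiles.

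Of the enzymes that turn coumaroyl-CoA into caffeoyl esters, most genes were lower than in hydrated leaves. Hydroxycinnamoyl-CoA shikimate/quinate hydroxycinnamoyltransferase (HCT) couples coumarate to shikimate or quinate. The HCT gene Bhs42636_001V1.1 (scaffold 42636, 165 to 1457, minus strand) was the member with the most reads, 66382 in all, and stood at 1886, 2372 and 2203 CPM in hydrated leaves, at 728.3, 985.1 and 977.2 CPM at 70% RWC and at 54.6, 65.4 and 59.2 CPM at 10% RWC. The states were fully separate, with log2 differences to hydrated of -1.26 (SE 0.12, edgeR adjusted p = 8.18e-07) and -5.17 (SE 0.14, edgeR adjusted p = 1.96e-12).

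Within the 7 HCT-named genes the profiles differed, with 5 lower and 2 higher at 70% RWC and 6 lower and 1 higher at 10% RWC against hydrated. Of all genes, 35.9% were lower and 34.6% higher at 70% RWC, and 41.5% and 42.4% at 10% RWC. From 70% to 10% RWC, 3 fell and 3 rose (42.9% each), near the 39.6% and 37.1% of all genes. Bhs5_187V1.1 fell almost at once, from 130.7 ± 3.64 CPM to 1.96 ± 0.612 CPM at 70% RWC and 0.815 ± 0.123 CPM at 10% RWC. Bhs4126_001V1.1 fell from 218.8 ± 24.2 to 13.7 ± 1.44 CPM and then rose to 57.8 ± 8.95 CPM, a rise of 2.08 on the log2 scale (SE 0.14, edgeR adjusted p = 1.64e-09). Bhs7080_001V1.1 went the other way, from 3.54 ± 1.14 and 5.09 ± 0.386 CPM to 31.1 ± 1.66 CPM at 10% RWC. Its log2 difference at 10% RWC was 3.14 (SE 0.16, edgeR adjusted p = 5.78e-12), while that at 70% RWC, 0.53, was called at an adjusted p of 0.0370 that ran from 0.00354 to 0.160 over 17 other settings. Bhs10194_001V1.1 was highest at 70% RWC, at 9.91 ± 0.658 CPM between 3.75 ± 0.642 and 0.907 ± 0.205 CPM. The other 2 HCT-named genes, Bhs576_003V1.1 and Bhs40632_001V1.1, were highest in hydrated leaves, at 14.5 ± 1.48 and 9.19 ± 1.39 CPM.

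Coumarate 3-hydroxylase (C3H), which adds the second ring hydroxyl to the shikimate ester, was named by 2 genes and both fell at every step. Bhs32_039V1.1 (scaffold 32, 279180 to 282516, minus strand) stood at 556.7, 566.1 and 570.0 CPM in hydrated leaves, at 197.8, 207.5 and 212.8 CPM at 70% RWC and at 21.2, 22.02 and 20.1 CPM at 10% RWC. The states did not overlap, and the differences to hydrated were -1.45 (SE 0.06) and -4.74 (SE 0.07) on the log2 scale. The second gene, Bhs445_029V1.1, went from 103.4 ± 14.3 to 11.6 ± 0.625 and 5.85 ± 0.242 CPM.

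Methylation of the caffeoyl ring was represented by 6 genes. At 70% RWC 4 were lower and none higher, beside 35.9% and 34.6% of all genes. Bhs1009_004V1.1 and Bhs10_082V1.1 were not called there. With the replicate block Bhs1009_004V1.1 was called higher there (log2 difference 0.77, edgeR adjusted p = 0.0382). At 10% RWC 4 were lower and 1 was higher, beside 41.5% and 42.4% of all genes. Bhs1009_004V1.1 was again not called, at 0.591 ± 0.0952 CPM. In 5 other settings Bhs1009_004V1.1 was called lower at 10% RWC, the replicate block among them (log2 difference -1.39, edgeR adjusted p = 0.00667). The caffeoyl-CoA O-methyltransferase Bhs1054_022V1.1 fell from 99.8 ± 4.92 to 30.8 ± 2.41 and 8.69 ± 1.08 CPM, and Bhs4520_001V1.1 of the same name from 6.20 ± 2.09 to 1.201 ± 0.157 and 0.181 ± 0.0771 CPM. Bhs4454_006V1.1, also of that name, had 3.16 ± 1.098 CPM in hydrated leaves, 2 reads in all at 70% RWC and 0.453 ± 0.0695 CPM at 10% RWC. The caffeic acid O-methyltransferase genes moved in opposite directions at 10% RWC. Bhs119_078V1.1, matched to isoform 2, stood at 30.4, 43.9 and 38.1 CPM in hydrated leaves, 16.7, 21.8 and 21.1 CPM at 70% RWC and 1.47, 0.421 and 0.405 CPM at 10% RWC. Bhs10_082V1.1, matched to isoform 1, stood at 1.53, 0.568 and 0.882 CPM, then at 1.39, 0.585 and 0.884 CPM, and at 16.8, 13.5 and 12.6 CPM at 10% RWC. The latter rose by 3.79 on the log2 scale at 10% RWC (SE 0.27, edgeR adjusted p = 4.58e-10), with no overlap, and was not called at 70% RWC. For both isoforms the KEGG match reads flavonol 3-O-methyltransferase, so the substrate is not settled by the names.

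Cinnamoyl-CoA reductase (CCR), which commits the CoA esters to lignin alcohols, had 5 genes with unlike profiles. Bhs4126_011V1.1 (scaffold 4126, 67462 to 70557, minus strand) fell from 225.5, 246.8 and 260.6 CPM in hydrated leaves to 26.4, 18.7 and 26.1 CPM at 70% RWC and 1.198, 0.561 and 0.811 CPM at 10% RWC. That is a log2 difference of -8.12 (SE 0.18, edgeR adjusted p = 1.24e-16) between the extreme states, which lay far apart. Bhs119_059V1.1 was highest at 70% RWC, at 120.5 ± 9.77 CPM between 69.3 ± 1.65 and 44.97 ± 3.63 CPM. Bhs9172_002V1.1 was not called at 70% RWC, with 30.2 ± 4.96 CPM in hydrated leaves and 31.6 ± 5.01 CPM there, and stood at 103.4 ± 7.24 CPM at 10% RWC, a rise of 1.77 on the log2 scale (SE 0.12, edgeR adjusted p = 3.99e-10). The other 2 CCR genes, Bhs4409_004V1.1 and Bhs161_007V1.1, were not called at 70% RWC and were lower at 10% RWC, with 2.76 ± 0.409 and 0.4996 ± 0.0829 CPM there.

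Cinnamyl alcohol dehydrogenase (CAD), which makes the alcohols themselves, was lower in 4 of 5 genes at 70% RWC and in 3 of 5 at 10% RWC, and higher in none against hydrated. The shares of all genes lower were 35.9% and 41.5%, and those higher 34.6% and 42.4%. Bhs32_085V1.1 fell from 90.1 ± 1.60 to 47.1 ± 4.12 and 19.8 ± 1.46 CPM, and Bhs8201_001V1.1 from 66.3 ± 2.35 to 4.34 ± 0.846 and 0.363 ± 0.205 CPM. Bhs7_041V1.1 fell from 49.2 ± 3.68 to 6.46 ± 1.26 CPM and then to 3 reads in all at 10% RWC, a read ratio to hydrated of 0.00276 (interval 0.000568 to 0.00808). Bhs252_003V1.1 fell and came back, at 24.1, 20.6 and 19.6 CPM in hydrated leaves, 3.76, 5.71 and 4.42 CPM at 70% RWC and 22.8, 16.3 and 16.1 CPM at 10% RWC. Its hydrated and 10% libraries overlapped (log2 difference -0.22, edgeR adjusted p = 0.173, 0.0173 to 0.481 over other settings), and both lay above those at 70% RWC. Bhs1845_008V1.1, whose KEGG match is a cinnamoyl-CoA reductase, was called in no comparison at 1.15 to 1.36 CPM.

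**Figure D3:**
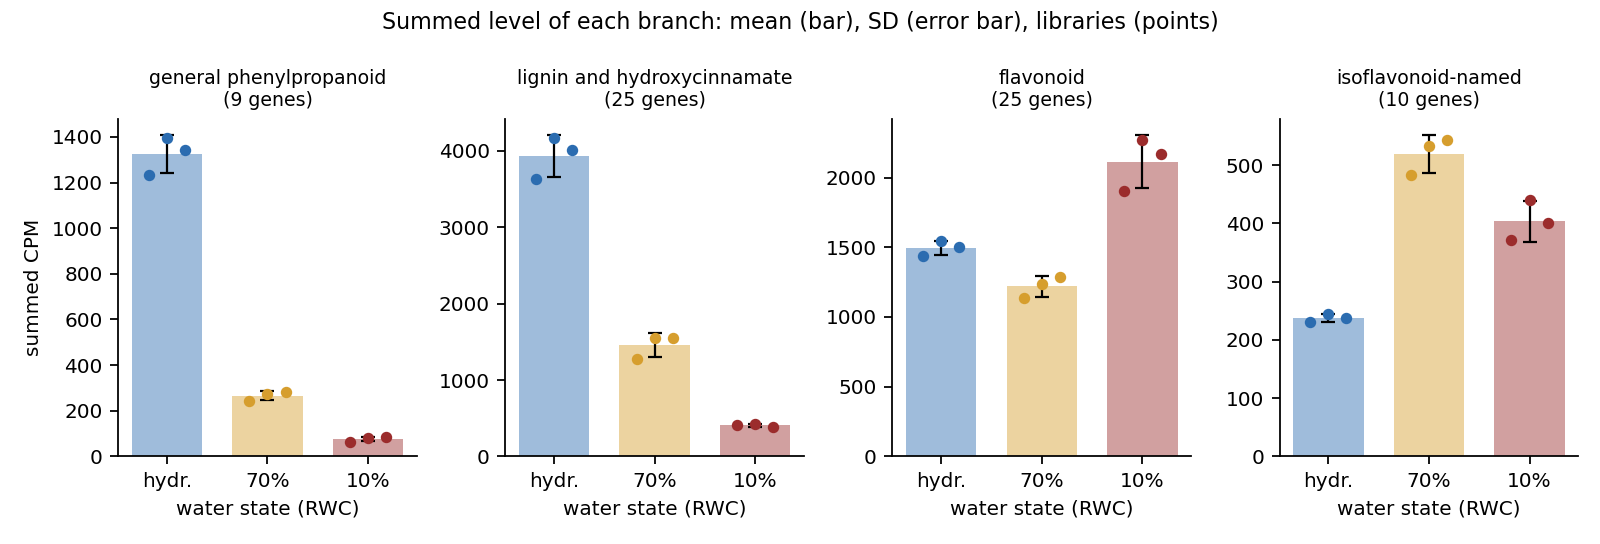
Summed CPM (y axis, each panel with its own scale from 0) of the members of 4 branches in hydrated leaves, at 70% RWC and at 10% RWC (x axis), with bars at the mean, error bars of 1 SD and a point per library. The general and lignin branches fall at each step, to 75.96 and 404.4 CPM, the flavonoid sum is highest at 10% RWC at 2115 CPM (886.7 CPM, its lowest, without Bhs8193_002V1.1), and the isoflavonoid-named sum at 70% RWC at 519.4 CPM.

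Summed by branch, the 9 general phenylpropanoid genes (PAL and 4CL) went from 1325 ± 83.5 to 265.4 (242.9 to 281.0 over the libraries) and 75.96 ± 9.95 CPM, and the 25 lignin and hydroxycinnamate genes from 3936 ± 272.8 to 1458 ± 161.2 and 404.4 ± 14.4 CPM. The 25 flavonoid genes had 1495 ± 52.1 CPM in hydrated leaves, 1220 ± 76.5 CPM at 70% RWC and 2115 ± 190.3 CPM at 10% RWC. That order rested on Bhs8193_002V1.1, a P450 gene with a flavonoid name whose KEGG match is the lignin enzyme ferulate 5-hydroxylase. Without it, which was tried after the values were seen, the flavonoid sum was 1191 ± 28.0, 972.9 ± 47.8 and 886.7 ± 20.3 CPM and thus lowest at 10% RWC. With it counted in the lignin branch, that branch summed to 4240 ± 296.9, 1705 ± 189.2 and 1633 ± 178.2 CPM, and the libraries of the drier states overlapped. By counts, 8 general genes fell and none rose at 70% RWC, and 9 fell at 10% RWC. In the lignin branch 16 fell and 3 rose at 70% RWC, and 19 fell and 3 rose at 10% RWC. In the flavonoid branch 13 fell and 11 rose at 70% RWC, and 17 fell and 8 rose at 10% RWC. Of all genes tested, 35.9% were lower and 34.6% higher at 70% RWC, and 41.5% and 42.4% at 10% RWC. The median log2 difference at 70% and 10% RWC was -2.23 and -5.44 in the general branch, -1.45 and -2.19 in the lignin branch and -0.30 and -1.10 in the flavonoid branch, beside -0.01 and 0.01 over all genes.

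Chalcone synthase, which joins coumaroyl-CoA with malonyl-CoA at the entry to the flavonoids, peaked at 70% RWC in all 3 of its genes. Bhs9687_003V1.1 (scaffold 9687, 19756 to 21572, plus strand) stood at 3.32, 3.97 and 4.41 CPM in hydrated leaves, at 71.4, 95.7 and 101.5 CPM at 70% RWC and at 10.3, 13.0 and 9.86 CPM at 10% RWC. All 3 states were separate, and the gene rose by 4.52 on the log2 scale at 70% RWC (SE 0.17, edgeR adjusted p = 5.52e-13) before it fell by 3.02 to 10% RWC (SE 0.14, edgeR adjusted p = 1.17e-11). Bhs39_055V1.1 went from 5.83 ± 0.309 to 24.8 ± 4.72 and 1.496 ± 0.461 CPM. Bhs7494_002V1.1 went from 2.75 ± 0.500 to 5.78 ± 0.597 and 0.815 ± 0.123 CPM, with reads on 48.1% of its gene model. At 10% RWC the last 2 genes were below their hydrated level (log2 difference -1.95 and -1.74) and Bhs9687_003V1.1 above it (1.50). The summed CHS level, 12.5 ± 0.455, 120.1 ± 21.1 and 13.4 ± 1.45 CPM, was thus high at 70% RWC while the summed PAL level was already down to 157.5 CPM.

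Chalcone isomerase, which closes the ring of the chalcone, did not share that peak. Its gene Bhs1354_004V1.1 fell from 23.6, 33.1 and 27.7 CPM to 12.5, 14.8 and 12.5 CPM at 70% RWC and to 7.86, 8.98 and 9.05 CPM at 10% RWC. The states did not overlap, with log2 differences of -1.08 (SE 0.14) and -1.70 (SE 0.14) to hydrated.

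Oxidation of the central flavonoid ring was read from genes named flavonol synthase, flavanone 3-hydroxylase or flavonoid biosynthesis oxidoreductase. Flavonol synthase Bhs51_022V1.1 fell from 12.9 ± 3.64 to 5.47 ± 0.503 and 1.04 ± 0.0900 CPM. The oxidoreductase Bhs3967_001V1.1 was 119.9 ± 8.54 CPM in hydrated leaves and 134.3 ± 3.35 CPM at 70% RWC and rose to 233.6 ± 7.40 CPM at 10% RWC, by 0.96 on the log2 scale (SE 0.07, edgeR adjusted p = 2.14e-10). Its 70% difference of 0.16 was called at an adjusted p of 0.0355, which ran from 6.87e-05 to 0.474 over 17 other settings and crossed the threshold in 9 of them. Bhs198_013V1.1 rose from 90.5 ± 7.57 to 115.7 ± 2.52 and 150.0 ± 1.16 CPM, but its long gene model of 5091 coding bases has a transcription factor subunit as its KEGG match, so its function is uncertain.

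The flavonoid hydroxylases of the P450 family that kept a flavonoid name went 3 ways. Bhs8193_002V1.1 (scaffold 8193, 28540 to 30591, minus strand), named flavonoid 3-hydroxylase, stood at 277.7, 325.0 and 309.1 CPM in hydrated leaves, at 215.2, 255.5 and 271.3 CPM at 70% RWC and at 1030, 1362 and 1295 CPM at 10% RWC. Every 10% library was above every other library, with a log2 difference to hydrated of 2.02 (SE 0.11, edgeR adjusted p = 8.42e-10). The small fall at 70% RWC, -0.30 on the log2 scale, was called at an adjusted p of 0.0281 that ran from 1.64e-07 to 0.0975 over other settings. Its KEGG match is ferulate 5-hydroxylase, an enzyme of the lignin branch. The flavonoid 3'-hydroxylase Bhs350_039V1.1, which adds a hydroxyl to the B ring, fell from 105.3 ± 9.60 to 30.9 ± 2.82 and 4.49 ± 1.27 CPM. Another of that name, Bhs11_040V1.1, was highest at 70% RWC, at 30.1 ± 1.61 CPM between 7.36 ± 1.01 and 1.68 ± 0.124 CPM.

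Dihydroflavonol 4-reductase (DFR), which reduces dihydroflavonols on the way to anthocyanins and tannins, was named by 8 genes, and 5 of these have cinnamoyl-CoA reductase as their KEGG match. Of the 3 whose KEGG match is also DFR, Bhs7891_001V1.1 (scaffold 7891, 10478 to 12841, minus strand) had 1 read in all 3 hydrated libraries, 36.6, 32.6 and 34.9 CPM at 70% RWC, and 0.932, 0.701 and 0.811 CPM at 10% RWC. The read ratio of 70% RWC to hydrated was 753 (exact 95% interval 134.7 to 29790, counting error only), and the fall from 70% to 10% RWC was -5.38 on the log2 scale (SE 0.20, edgeR adjusted p = 1.09e-13). Bhs3495_015V1.1 was also highest at 70% RWC, where it rose from 6.63 ± 1.04 to 13.0 ± 1.32 CPM before it fell to 0.180 ± 0.203 CPM at 10% RWC. Bhs1599_020V1.1 rose at both steps, from 0.843 ± 0.314 to 8.004 ± 1.24 and 14.3 ± 0.304 CPM.

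The DFR-named genes with a reductase match of the lignin branch differed from these and from each other. Bhs1845_007V1.1 (scaffold 1845, 212802 to 215431, plus strand) stood at 9.83, 8.80 and 7.79 CPM in hydrated leaves, at 102.5, 82.3 and 86.8 CPM at 70% RWC and at 108.3, 89.8 and 89.3 CPM at 10% RWC. It rose by 3.35 at 70% RWC (SE 0.13, edgeR adjusted p = 1.37e-13), and the 2 drier states overlapped (log2 difference 0.08, edgeR adjusted p = 0.446). Its neighbour on the scaffold, Bhs1845_006V1.1, 58696 bases away, was not called at 70% RWC and was lower at 10% RWC, with 18.9 ± 1.48, 21.8 ± 3.04 and 11.8 ± 0.353 CPM. Bhs15603_001V1.1 fell from 86.1 ± 2.04 to 20.6 ± 0.900 CPM and stood at 40.5 ± 4.54 CPM at 10% RWC. Bhs2746_003V1.1 fell from 17.1 ± 0.948 to 2.01 ± 0.857 CPM and rose again to 11.8 ± 0.786 CPM, by 2.54 on the log2 scale (SE 0.22, edgeR adjusted p = 1.20e-08). Bhs837_008V1.1 fell from 53.0 ± 6.60 to 22.2 ± 1.72 CPM and was 27.6 ± 0.680 CPM at 10% RWC, a rise of 0.31 called at an adjusted p of 0.0169 that ran from 0.00338 to 0.0786 over other settings. Summed over the 8 genes, the level differed little between states, with 191.3 ± 4.57, 212.8 ± 18.3 and 202.7 ± 14.2 CPM.

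**Figure D4:**
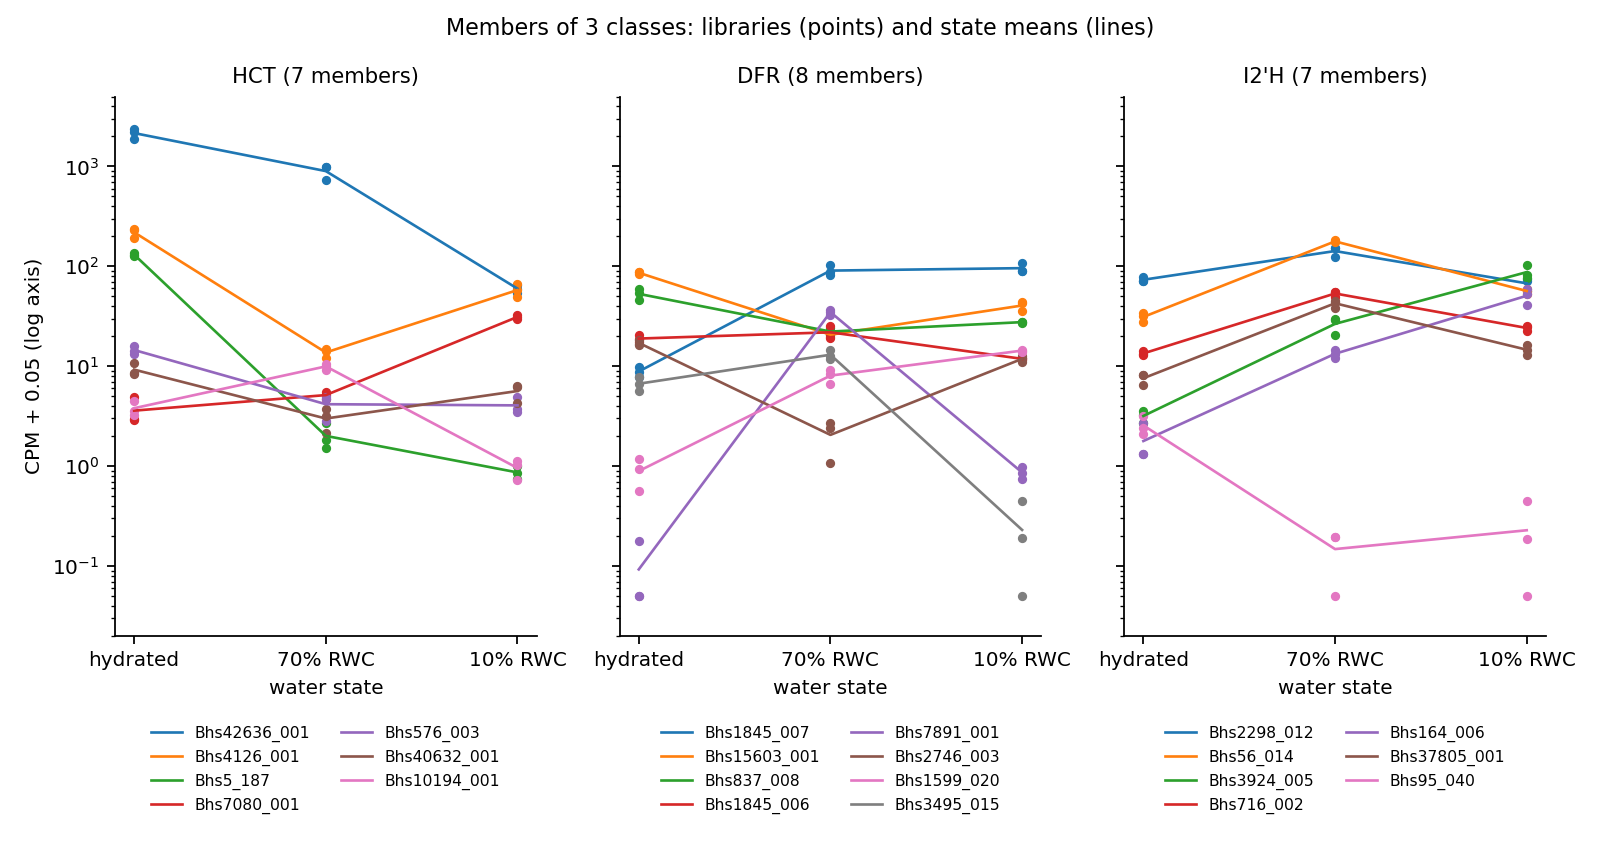
CPM plus 0.05 on a log axis (y) in the 3 water states (x) for the members named HCT, DFR and isoflavone 2'-hydroxylase (I2'H), with a point per library and a line through the state means of each gene. Members of a class cross: among DFR-named genes Bhs7891_001V1.1 peaks at 34.7 CPM at 70% RWC while Bhs2746_003V1.1 dips to 2.01 CPM there.

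The genes of the last steps to anthocyanidins and flavanols fell against hydrated leaves, 3 of 3 in both drier states. Among all genes, 35.9% fell at 70% RWC and 41.5% at 10% RWC. Leucoanthocyanidin dioxygenase, also called anthocyanidin synthase, was named by Bhs693_021V1.1 (scaffold 693, 441574 to 442870, minus strand), at 427.7, 476.8 and 459.9 CPM in hydrated leaves, 228.4, 266.4 and 278.7 CPM at 70% RWC and 186.7, 229.1 and 221.1 CPM at 10% RWC. The hydrated libraries were above all others, with log2 differences of -0.82 (SE 0.09) and -1.10 (SE 0.09), and the drier states overlapped in their ranges. The fall from 70% to 10% RWC, -0.28, was called at an adjusted p of 0.00726 that reached 0.0723 when replicates 2 and 3 were summed as 1 sample. The match is a putative one with no KEGG entry. Anthocyanidin reductase Bhs8763_003V1.1, which makes flavanols for tannins, fell from 16.1 ± 0.801 CPM to 0.432 ± 0.146 CPM at 70% RWC and stood at 0.316 ± 0.205 CPM at 10% RWC, a last step that was not called. A second dioxygenase-named gene, Bhs297_008V1.1, whose KEGG match is flavonol synthase, fell from 8.31 ± 1.67 to 1.75 ± 1.18 and 0.230 ± 0.213 CPM.

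Among the 4 transferases that act on finished flavonoids, 3 fell and 1 rose in each drier state against hydrated. Beside these stand 35.9% of all genes lower and 34.6% higher at 70% RWC, and 41.5% and 42.4% at 10% RWC. The flavonoid glucosyl transferases Bhs3036_008V1.1 and Bhs3036_010V1.1 lie 6917 bases apart on scaffold 3036. The former went from 74.7 ± 5.98 to 10.8 ± 1.096 and 15.7 ± 0.0756 CPM and the latter from 56.2 ± 6.26 to 33.0 ± 6.04 and 10.5 ± 0.998 CPM. An anthocyanidin rhamnosyl transferase, Bhs3174_002V1.1, rose from 2.68, 3.83 and 2.50 CPM to 5.29, 5.42 and 8.10 CPM at 70% RWC and 30.4, 33.9 and 32.4 CPM at 10% RWC. The states did not overlap, and the log2 difference at 10% RWC was 3.42 (SE 0.18, edgeR adjusted p = 5.31e-12). The flavonol sulfotransferase Bhs5907_001V1.1 had 9.91 ± 2.97 CPM in hydrated leaves, 2 reads in all at 70% RWC and 0 reads at 10% RWC, where it was at least 72.5-fold lower with 3 reads over the 3 libraries taken as the floor.

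Of the 10 members named for isoflavonoids, 6 were higher and 3 lower than hydrated leaves at 70% RWC, where 34.6% and 35.9% of all genes were. At 10% RWC 7 were higher and 2 lower, where 42.4% and 41.5% of all genes were, and 1 of the 7, Bhs7_096V1.1, was lost in 11 of 17 other settings. With a floor of 2-fold, 5 rose and 2 fell at 70% RWC, where 15.1% and 20.5% of all genes did. At 10% RWC, 2 rose and 2 fell by that floor, where 25.9% and 29.7% of all genes did. From 70% to 10% RWC the calls without a floor were 4 higher and 4 lower, near the 37.1% and 39.6% of all genes. With the floor they were 2 higher and 4 lower, where 18.6% and 25.0% of all genes were. The median log2 difference to hydrated was 1.47 and 0.66. Isoflavonoids are chiefly known from legumes, and these names come from the closest database protein. In the 7 isoflavone 2'-hydroxylase-named P450 genes, reads covered between 5.0% and 64.0% of the gene model in the best library, where the median over all members was 97.3%. Their counts thus rest on a stretch of the gene, and how reads that fit several copies affect them was not tested.

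Bhs56_014V1.1, covered over 35.9%, stood at 27.6, 33.9 and 31.8 CPM in hydrated leaves, at 173.2, 177.1 and 182.5 CPM at 70% RWC and at 57.1, 59.9 and 52.7 CPM at 10% RWC. It was highest at 70% RWC with no overlap, by 2.52 on the log2 scale over hydrated (SE 0.08, edgeR adjusted p = 1.48e-14). Bhs2298_012V1.1 was also highest at 70% RWC, at 73.3 ± 3.42, 142.1 ± 15.8 and 67.5 ± 9.46 CPM, as were Bhs716_002V1.1, at 13.4 ± 0.807, 53.4 ± 3.61 and 24.1 ± 1.23 CPM, and Bhs37805_001V1.1, at 7.54 ± 0.922, 42.6 ± 3.60 and 14.6 ± 1.79 CPM. Bhs3924_005V1.1, covered over 5.0%, rose at both steps, from 3.13 ± 0.454 to 26.5 ± 5.24 and 87.4 ± 13.5 CPM, and Bhs164_006V1.1, covered over 8.8%, from 1.73 ± 0.791 to 13.3 ± 1.29 and 50.7 ± 8.93 CPM. The remaining gene, Bhs95_040V1.1, had 60 reads in all, the fewest of any member, and was highest in hydrated leaves at 2.51 ± 0.555 CPM.

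Of the 3 isoflavone reductase-named genes, which belong to a family that also reduces lignan and coumaran substrates, Bhs4_121V1.1 fell from 22.4 ± 0.362 to 2.92 ± 0.502 CPM at 70% RWC and stood at 3.49 ± 0.377 CPM at 10% RWC, not called against 70% RWC. Bhs7_096V1.1 dipped from 62.6 ± 3.21 to 42.5 ± 3.37 CPM at 70% RWC and stood at 71.6 ± 4.95 CPM at 10% RWC. Its rise of 0.19 over hydrated had an adjusted p of 0.0363, which ran from 0.00473 to 0.407 over other settings. Its rise of 0.75 over 70% RWC had an edgeR adjusted p of 3.27e-07. Bhs1796_004V1.1 was not called at 70% RWC and rose at 10% RWC, at 19.9 ± 0.833, 18.5 ± 2.23 and 27.6 ± 1.65 CPM.

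**Figure D5:**
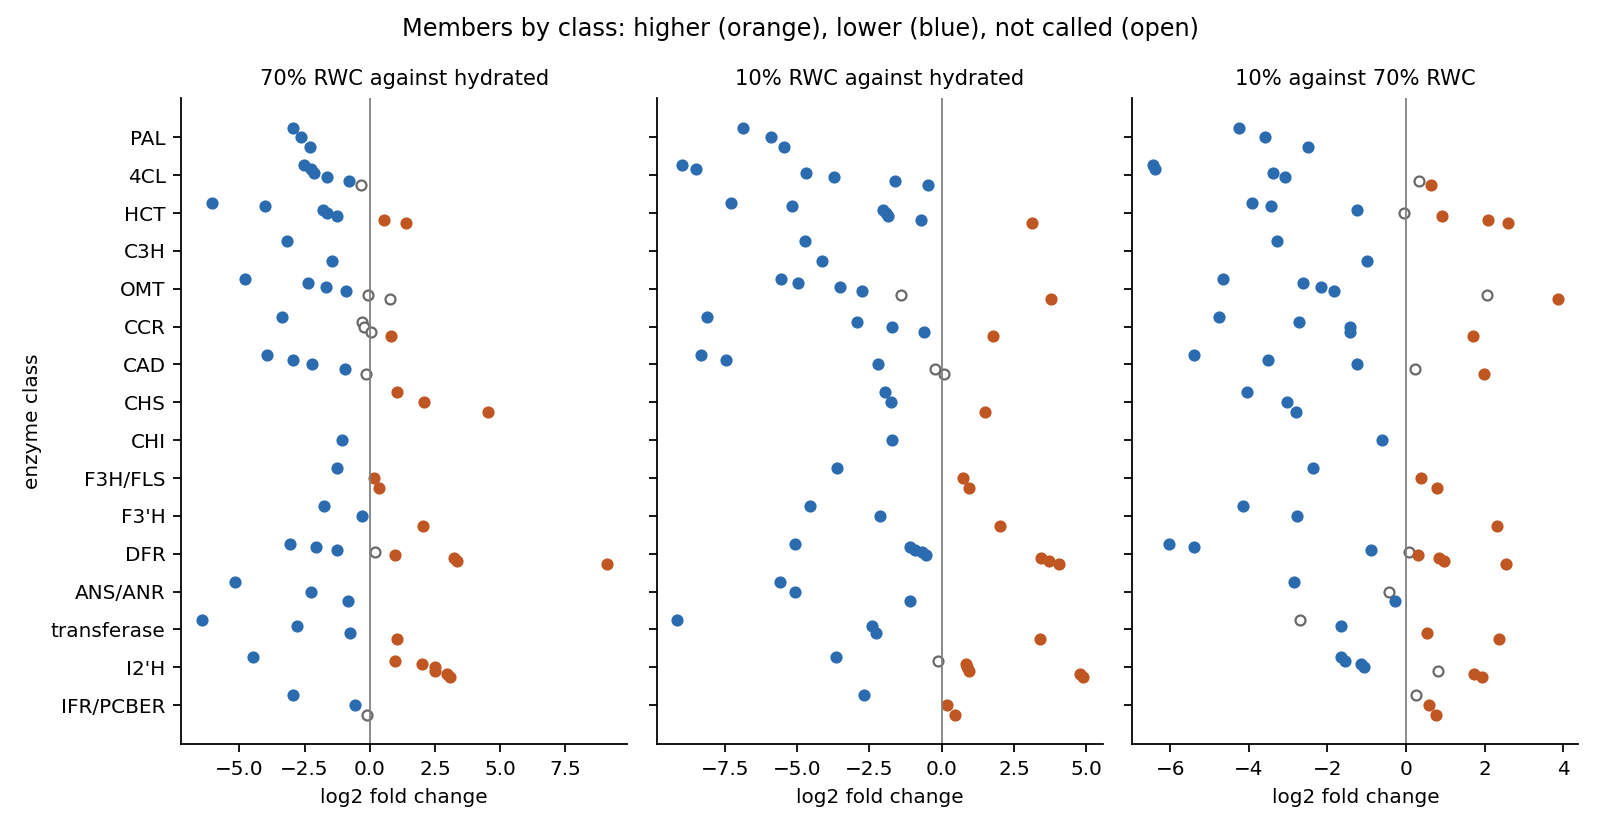
Log2 fold change (x axis) of each of the 69 members in 3 comparisons (panels), by enzyme class (y axis), with genes called higher in orange, called lower in blue and not called as open points. PAL, C3H and 4CL hold no gene called higher against hydrated, the 3 CHS genes are higher at 70% RWC, and HCT, CCR, DFR and I2'H genes lie on both sides at 10% RWC.

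With members moving in both directions, the make-up of the set changed. The 69 genes summed to 6993 ± 415.4 CPM in hydrated leaves, 0.699% of the TMM-scaled library size. They summed to 3463 ± 286.4 CPM (0.346%) at 70% RWC and to 2999 ± 236.4 CPM (0.300%) at 10% RWC. The HCT gene Bhs42636_001V1.1 held 30.7 ± 1.73% of the sum in hydrated leaves, 25.8 ± 2.24% at 70% RWC and 1.99 ± 0.0459% at 10% RWC. PAL Bhs160_034V1.1 held 12.8 ± 0.250%, 4.21 ± 0.0325% and 0.257 ± 0.0820%. The flavonoid 3-hydroxylase-named Bhs8193_002V1.1 held 4.34 ± 0.0876% and 7.13 ± 0.271% and then 40.8 ± 2.85% at 10% RWC. Without the HCT gene the set summed to 4840 ± 169.2, 2566 ± 143.8 and 2940 ± 231.2 CPM, with the highest 70% library and the lowest 10% library next to each other at 2686 and 2689 CPM. Without both the HCT gene and Bhs8193_002V1.1 it summed to 4536 ± 145.2, 2319 ± 114.8 and 1711 ± 64.6 CPM, so the order of the drier states turned with that P450 gene.

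Per kilobase of coding length, which allows levels of different genes to be compared, the HCT gene led hydrated leaves at 1666 ± 190.6 CPM per kilobase, followed by the leucoanthocyanidin dioxygenase-named gene at 436.9 ± 24.0, PAL at 418.0 ± 20.8 and C3H at 368.8 ± 4.46. The dioxygenase and PAL values lie within their spread of each other. At 70% RWC the HCT gene still led at 693.7 ± 112.9 CPM per kilobase, ahead of the dioxygenase-named gene at 247.7 ± 25.2. At 10% RWC Bhs8193_002V1.1 led at 824.1 ± 117.7 CPM per kilobase, followed by the dioxygenase-named gene at 204.0 ± 21.7, Bhs3967_001V1.1 at 175.4 ± 5.55 and CCR Bhs9172_002V1.1 at 129.1 ± 9.04. The dioxygenase-named gene thus had the second highest mean in each state.

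Steps before and after the members were read from lists of search words, whose counts stand beside the 35.9% of all genes lower and 34.6% higher at 70% RWC, and the 41.5% and 42.4% at 10% RWC. Of 18 tested genes of the route to aromatic amino acids, which supplies phenylalanine, 16 fell (88.9%) and 1 rose at 70% RWC, and 11 fell (61.1%) and 3 rose at 10% RWC. The search words also took isochorismate and aminodeoxychorismate synthases, which lead elsewhere, and the 3 that rose at 10% RWC were isochorismate synthases. Without these names, 11 of 13 fell and 1 rose at 70% RWC, and 9 fell and none rose at 10% RWC. The entry enzyme, phospho-2-dehydro-3-deoxyheptonate aldolase, was named by Bhs649_053V1.1, which fell at both steps from 524.0 ± 47.8 to 90.2 ± 6.45 and 21.5 ± 1.77 CPM. A second gene of that name, Bhs771_075V1.1, fell from 424.3 ± 37.7 to 164.9 ± 18.8 CPM and was back at 476.4 ± 38.3 CPM at 10% RWC, not called against hydrated.

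Beyond the members, 6 of 11 tested glycosyltransferases with a flavonoid or hydroxycinnamate name fell (54.5%) and 4 rose (36.4%) at 70% RWC, and 7 fell (63.6%) and 3 rose (27.3%) at 10% RWC. The hydroxycinnamate glucosyltransferase Bhs31604_001V1.1 fell from 92.3 ± 10.1 to 19.2 ± 0.442 CPM and rose to 182.5 ± 15.0 CPM at 10% RWC, and the flavonoid 3-O-glucosyltransferase Bhs32_082V1.1 rose from 79.7 ± 10.99 to 141.7 ± 1.31 CPM and fell to 9.16 ± 1.09 CPM. Of 4 tested transport and regulation genes, 2 fell and 1 rose at 70% RWC and 3 fell and 1 rose at 10% RWC, among them MYB4 (Bhs7_153V1.1), a repressor of the pathway in Arabidopsis, which fell from 30.8 ± 1.68 to 11.8 ± 2.61 and 3.20 ± 1.29 CPM. Among 6 tested genes of the polymer end of lignin, 3 rose and 3 fell in both drier states, and the laccase Bhs649_092V1.1, an oxidase that can couple lignin alcohols, rose from 50.5 ± 2.28 to 458.2 ± 50.02 and 1301 ± 138.3 CPM. Bhs649_090V1.1 and Bhs649_091V1.1, which also rose at 70% RWC, are numbered next to it on the same scaffold. They were scarce, at 0.965 and 0.278 CPM in hydrated leaves and 5.70 and 0.765 CPM at 70% RWC. The fixed words for pathway P450 enzymes matched 1 further gene, with too few reads to test.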

How the data were processed

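Unique reads were counted per gene in 9 leaf libraries, 3 for each of 3 water states. The title HD was read as hydrated, the remaining state in the series' design text. The deposited values are, per the file headers, raw counts of uniquely placed reads on each gene model, with the model's length in bases and the percent of it that reads cover. Library totals printed in the headers match the summed counts in 9 of 9 files. A gene with no read is left out of a file and was set to 0. Per the labels' protocols, RNA came from a Trizol extraction and went into Illumina libraries. The aligner, counter, strandedness and assembly version are not given in the sources used here, and gene positions are those of the deposited scaffolds. Lengths of all gene models are multiples of 3 and are read as coding lengths. With reads counted only where unique, genes with near-identical copies can be undercounted. No 2 members' models, nor those of a member and any other gene, overlap. The authors' table of comparisons was not used.

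Counts were fitted with edgeR 4.0.16 (R 4.3.3): TMM scaling, filterByExpr, robust quasi-likelihood fit with 1 mean per state and no replicate term, over 14585 genes in all 9 libraries, with two-sided p-values adjusted by Benjamini-Hochberg over all of them. CPM are TMM-scaled, with no prior count. The code was tested on simulated counts. Intervals and floors (3 reads over a group) cover counting error only. Other settings were RLE or total-count scaling, DESeq2 1.42.0, no filter on low counts, a replicate term, replicates 2 and 3 alone or summed, only the 2 states compared, other read thresholds, a 2-fold floor, enzyme classes of the pathway alone, each library left out, and, chosen after seeing the data, only members covered over at least 90%. With 3 libraries against 3, a permutation of 1 gene cannot give a p below 0.1, so none is given.

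In each enzyme class the 3 members with the highest mean CPM were named, and in each class and comparison the called members with the largest rise and fall where the higher state had at least 5 CPM. This names 54 members. The other 15 were named after their values were seen. From each list of other genes, the called gene of at least 2-fold with the highest mean CPM was named in each comparison. Members and lists were chosen with earlier results of these data known, and the enzyme classes used to order the text were drawn up after the names were seen. Names are those of the best protein match and paralogs may be misassigned.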

Additional observations from a re-analysis of the deposited data

How the results depend on the processing

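For the 54 members named by the rule, no called difference changed direction under 17 alternatives (scaling, filter, tool, replicate or library choices). The counts called higher moved when limited: with enzyme classes of the pathway alone, 13 members were higher at 70% RWC against hydrated (20 otherwise), 9 at 10% RWC (18) and 13 from 70% to 10% RWC (20). With a 2-fold floor, 11 were higher at 10% RWC against hydrated and 10 from 70% to 10% RWC. With only the 49 members covered over at least 90%, chosen after seeing the data, 10 were higher at 70% RWC and 11 at 10% RWC. Fewer genes are counted by construction in each. The counts lower moved less: of the 49 well-covered members, 32 were lower at 70% RWC and 36 at 10% RWC, beside 40 and 47 of all 69. Members covered under 90% thus held a larger part of the rises than of the falls. Leaving out each library in turn gave 58 to 60 calls at 70% RWC (18 to 20 higher, 39 to 41 lower), 64 to 66 at 10% RWC (17 to 18 higher, 47 to 49 lower) and 59 to 61 from 70% to 10% RWC (19 to 21 higher, 40 lower). Of 207 member comparisons, 15 crossed the threshold under some of these, with 7 calls lost and 8 gained. Those of members named by the rule are given with their ranges in the text, beside Bhs2298_012V1.1 at 10% RWC (adjusted p = 0.284, 0.0140 to 0.982) and Bhs5_187V1.1 from 70% to 10% RWC, lost with replicates 2 and 3 alone (adjusted p = 0.0676). Total-count scaling put the median of all genes at 70% RWC at -0.112 in place of -0.01 on the log2 scale.

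Libraries share replicate numbers across states. With the replicate block, 62, 66 and 62 members were called in the 3 comparisons, with 5 calls gained and none lost. Same-numbered libraries correlated in their deviations by 0.069 to 0.293 and differently numbered ones by -0.217 to 0.141. Of 9 same-number pairs 6 exceeded 0.1 (3 of 3 between hydrated and 70% RWC, but 2 of 3 and 1 of 3 between these and 10% RWC). A library correlated best with its own number in 13 of 18 cases. Pairs of replicate 1 stood at 0.238 to 0.293. Those of replicates 2 and 3 stood at 0.069 to 0.129, within the range of differently numbered libraries. The hint of a shared replicate effect was thus plain only for replicate 1. The labels do not say what a number marks, so the numbers were not used as pairs throughout, and the 2 calls gained with the block at 70% RWC are given in the text. Depth limits members at 1 to 3 reads in a state, whose ratios span wide intervals, and 6 members had reads on under 50% of their gene model.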
